A study of Mus musculus with 17 samples.

Results

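Cytochrome P450 and glutathione transferase genes were taken from the lung RNA of 17 mice as protein-coding genes chosen by symbol and by count. The symbols named a P450 of the CYP1 to CYP4 families, a flavin monooxygenase, an aldehyde oxidase or a glutathione transferase. The transferases were those of the alpha, kappa, mu, omega, pi and theta classes. The counts had to sum to at least 50 over all libraries. Of 31245 genes in the table, 76 fitted the names and 56 fitted both conditions, and all 56 passed the lower minimum of 20 counts for testing. They were 29 P450 genes (2 of CYP1, 16 of CYP2, 1 of CYP3 and 10 of CYP4), 18 transferases (6 mu, 3 alpha, 3 pi, 3 theta and 3 kappa or omega), 6 flavin monooxygenases and 3 aldehyde oxidases. Cyp2c23, Aox2 and Cyp2a4 lay just inside the minimum with totals of 53, 57 and 58 counts, and Cyp2d9, Cyp3a11 and Cyp4x1 just outside with 39.6, 36 and 35.4.

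The mice were wild type (WT), labelled as PPARα knockouts (KO) or labelled as carrying human PPARα (KI), PPARα being a lipid-sensing nuclear receptor that perfluorooctanoic acid (PFOA) can activate. All ate 1 custom diet modelled on that of American adults, and drank PFOA at 6.2 μg/mL in sucrose water or sucrose water alone (vehicle) for 14 weeks from 6 weeks of age. Each of the 6 groups had 3 libraries of 1 mouse each, except WT vehicle with 2. WT mice were bought as Sv/129, whereas KO and KI mice came from breeding pairs lacking mouse PPARα and heterozygous for the human gene, so that genotype and source colony cannot be told apart in any comparison with WT. All KO libraries came from females, and 5 of the 11 others from males. Library totals were 4116118 to 9237356 counts. The gene targeted in the engineered mice, Ppara, averaged 6.67 CPM on vehicle in WT (SD 0.763, n = 2) and 10.4 CPM in KO (SD 1.29, n = 3). It was thus not lower under the KO label, and since a count over the whole gene does not show which exons were read, WT, KO and KI stand below for labels only. WT vehicle 122 and KO vehicle 137 stood apart in the share of counts in protein-coding genes. They had 65.3% and 61.3%, against 74.4 to 80.4% in the other 15 libraries. The main member results that rest on either library are therefore also given without it. Results for the marker and pathway lists come from the fit of all 17 libraries only. Markers of alveolar, endothelial and ciliated cells were above 0 in every library, as were the club cell markers except Reg3g and Bpifa1, each at 0 in 6 libraries. The liver markers that could be measured (4 of 7 listed) summed to 0.141 to 6.45 CPM, and 5 cardiac muscle markers to 269 to 6884 CPM, with 416 to 706.5 CPM in WT vehicle and 2016 to 6884 CPM in KI vehicle.

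These enzymes carry out the first steps by which the body handles foreign and many endogenous lipophilic compounds. P450 enzymes, anchored in the endoplasmic reticulum and fed electrons by the reductase Por, insert oxygen into a substrate; flavin monooxygenases and aldehyde oxidases oxidize nitrogen, sulfur and aldehyde or heterocyclic groups; and glutathione transferases couple the reactive products to glutathione. In the lung much of this capacity sits in club cells, the secretory cells of the bronchioles, whose P450 Cyp2f2 activates naphthalene and related compounds. Nuclear receptors and the aryl hydrocarbon receptor (AhR) switch many of the genes on, with Cyp1a1 the textbook AhR target and hepatic Cyp4a10 and Cyp4a14 the textbook PPARα targets.

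Promoters are shown for the 3 members that were called in the genotype comparisons below, since all 3 were lower in both engineered genotypes. Of the 56 members, 46 had an entry in the RefSeq promoter table (build GRCm38.p6, of which mm10 is the same assembly), with 54 start sites. The 250 bases before each start were searched on both strands for GCGTG, the core of the element that AhR binds, and for TGACNNNGC, the core of the antioxidant response element, and on the given strand for TATAAA, a form of the TATA box. The AhR core GCGTG was present in 27.8% of member windows and 28.2% of all 32851 windows, TGACNNNGC in 7.41% and 10.2%, and TATAAA in 11.1% and 7.59%. Below, each sequence runs 5′ to 3′ up to the base before the start, and capitals mark GCGTG.
Cyp1a1, chr9:57697363-57697612, plus strand: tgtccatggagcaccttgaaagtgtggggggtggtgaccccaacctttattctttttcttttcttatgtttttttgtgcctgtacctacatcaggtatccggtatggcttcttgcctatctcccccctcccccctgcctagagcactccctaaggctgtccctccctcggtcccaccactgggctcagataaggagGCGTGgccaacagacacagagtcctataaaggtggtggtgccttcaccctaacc
Cyp2b13, chr7:26061245-26061494, plus strand: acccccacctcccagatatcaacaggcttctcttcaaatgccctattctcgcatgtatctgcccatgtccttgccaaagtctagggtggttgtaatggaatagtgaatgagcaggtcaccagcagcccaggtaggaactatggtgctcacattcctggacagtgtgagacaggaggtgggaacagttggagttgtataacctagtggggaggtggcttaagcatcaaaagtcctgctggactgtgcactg
Fmo4, chr1:162812550-162812799, minus strand: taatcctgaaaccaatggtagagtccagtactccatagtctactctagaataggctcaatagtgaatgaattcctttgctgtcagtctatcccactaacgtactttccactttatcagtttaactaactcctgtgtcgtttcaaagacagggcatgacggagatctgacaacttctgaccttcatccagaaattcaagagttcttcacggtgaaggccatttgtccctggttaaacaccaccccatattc
Cyp1a1 held a GCGTG that began 54 bases before the start and a TATAAA that began 30 bases before it. The windows of Cyp2b13 and Fmo4 held none of the 3 motifs. In the GENCODE M21 annotation Cyp1a1 (ENSMUSG00000032315) spans chr9:57687928-57703824 and Fmo4 (ENSMUSG00000026692) chr1:162793188-162813972, so that these RefSeq starts lie inside the annotated genes, whereas Cyp2b13 (ENSMUSG00000040583, chr7:26061497-26096197) begins beside its RefSeq start. A motif match is a description of the sequence and not evidence of binding.

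Per kilobase of exon, which is the only scale used here to compare genes, Cyp2f2 had the highest mean level of all members at 579.62 CPM per kb over the 17 libraries. Fmo2, the flavin monooxygenase typical of lung, followed at 164 and Cyp4b1, a lung P450 that activates furans, at 133 CPM per kb. Cyp2b10 (98.2), Gstm1 (90.9), Fmo1 (52.2), Cyp2a5 (38.2), Gsta4 (25.9), Cyp2s1 (21.4) and Gsta3 (19.8 CPM per kb) completed the first 10. At the other end, Aox2, Cyp2c23 and Cyp2a4 averaged 0.09, 0.22 and 0.26 CPM per kb, and Cyp1a1, which is low without an inducer, 0.82. Each member's range over libraries overlapped that of its neighbor in this order, Cyp2f2 and Fmo2 included.

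**Figure D1:**
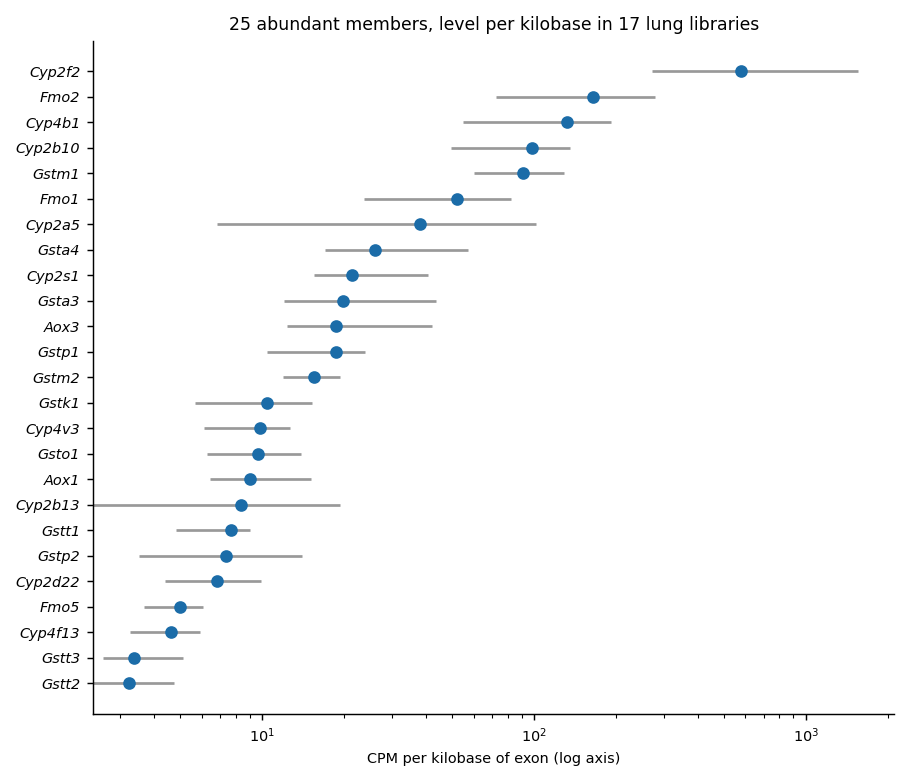
Level per kilobase of exon in the 25 most abundant of the members reported here. The horizontal axis is CPM per kilobase on a log scale, dots are means over 17 libraries and lines run from the lowest to the highest library, except that those of Cyp2b13, at 0 in 1 library, and Gstt2 meet the left edge. The dot of Cyp2f2 lies to the right of all others at 579.62 CPM per kb.

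The PPARα-type P450 genes of liver were close to absent from the lung counts. Cyp4a10, Cyp4a12a and Cyp4a14, which hydroxylate fatty acids at the omega end, totaled 19.5, 12 and 11 counts over 17 libraries and were not members. Cyp4a12b and Cyp4a32 were the CYP4A genes with enough counts, and Cyp4a12b was at 0 in 6 libraries, where 3 counts would be 0.325 to 0.729 CPM depending on depth. The transferases Gstm2, Gstp1, Gstm1 and Gstt1 were among the 6 members that varied least, with coefficients of variation over all libraries of 12.8%, 15.4%, 15.5% and 15.7%. The others were Fmo5 and the P450 Cyp4f13, both at 14.6%, and Cyp4a12b varied most at 148%.

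The whole set made up a larger share of the counts in WT than in the engineered mice. It took 0.464% and 0.599% of counts in the WT vehicle libraries and 0.464 to 0.484% in WT PFOA. In KO the share was 0.295 to 0.336% on vehicle and 0.297 to 0.341% on PFOA, and in KI 0.371 to 0.381% and 0.364 to 0.412%. No KO or KI library reached the lowest WT library. The share is weighted by abundant members such as Cyp2f2 and Fmo2, with totals of 142212 and 116221 counts. Flavin monooxygenases summed to 1575 to 2092 CPM in WT, 622 to 1221 in KO and 957 to 1456 in KI. Theta transferases overlapped, with 34.7 to 49.1 CPM in WT, 35.6 to 39.9 in KO and 31.9 to 44.1 in KI. In bulk tissue, fewer cells of a type and less RNA per cell cannot be told apart.

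The comparison of KO with WT asked which members differed by genotype, with exposure as a term in the model (edgeR quasi-likelihood test, 26946 genes). A member was called when its adjusted p was below 0.2 and its level changed more than 2-fold, and 3 of 56 members were called, all lower in KO: Fmo4, Cyp1a1 and Cyp2b13. Over all genes 2.36% were called and 0.623% were called lower. At an adjusted p under 0.05 with any fold, 9 members differed, all lower, against 1.92% of all genes. Libraries of the genotypes did not overlap for 10 members lower in KO (background 1.57%) and for none higher (background 1.2%). The median log2 fold change was -0.27 over members and 0.02 over all genes tested, and 36 members had a value below 0. Without WT vehicle 122 these medians were -0.07 and 0.04, so the member median rested largely on that library. Without it and KO vehicle 137 they were -0.16 and 0.01, and with sex as a covariate -0.13 and 0.04.

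KI differed from WT in the same 3 called members, again all lower, where 1.37% of all genes were called and 0.43% called lower. With an adjusted p under 0.05 and any fold, 2 members differed (background 0.983%). Cyp2b13, Fmo2, Fmo1 and Cyp4b1 had KI libraries wholly below WT (background 1.05%), and no member had them wholly above (background 0.943%). For KI the median log2 fold change was -0.07 over members and 0.01 over all genes, with 32 members below 0 and 24 above. Without WT vehicle 122 the member median was 0.01. The KO and KI comparisons share the WT libraries, so their values are not independent of each other.

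Cyp2b13, a CYP2B enzyme whose gene lies on chromosome 7, was lower in every engineered library than in every WT library. Its counts gave 29.97 and 30.3 CPM in WT vehicle (mice 107 and 122) and 36.1, 33.6 and 31.2 in WT PFOA (mice 50, 56 and 65). KO libraries held 13.6, 10.6 and 8.16 CPM on vehicle (137, 145, 149) and 10.8, 8.73 and 6.43 on PFOA (52, 154, 155). KI libraries held 5.57, 13.4 and 9.98 CPM on vehicle (102, 116, 135) and 12.9, 0 and 5.73 on PFOA (57, 80, 139). The highest engineered library was thus well below the lowest WT one, and WT vehicle and PFOA libraries did not overlap by a narrow margin. The log2 fold change was -1.78 (SE 0.41, adjusted p = 0.0245, edgeR) for KO and -2.07 (SE 0.42, adjusted p = 0.0134) for KI, a level 3.44-fold and 4.19-fold lower. KI PFOA 80 had 0 counts, which allows up to 0.396 CPM, and without it the KI change was -1.76 (adjusted p = 0.000231). Cyp2b10 and the low Cyp2b9 are close relatives, between which an estimated count can be split, and a processed pseudogene lies inside Cyp2b13 on the same strand, so the value is uncertain to that extent. Cyp2b10 itself was at 232 and 255.8 CPM in WT vehicle and 105 to 205 CPM in KO vehicle libraries, with a log2 fold change of -0.63 for KO (SE 0.18, adjusted p = 0.0828).

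Cyp1a1, the AhR-inducible P450 that oxidizes polycyclic hydrocarbons, had low counts throughout. WT vehicle libraries had 5.46 and 5.24 CPM, from 41 and 32 counts, and WT PFOA 5.2, 6.43 and 2.96. KO libraries had 2.3, 0.844 and 0.628 CPM on vehicle and 0.797, 1.6 and 0.15 on PFOA, with 1 to 15 counts each. KI libraries had 1.75, 0.255 and 0.703 CPM on vehicle and 3.08, 0.771 and 0.838 on PFOA. All KO libraries lay below all WT libraries, and KI PFOA 57 was the KI library that reached above the lowest WT one. The log2 fold change was -2.29 for KO (SE 0.50, adjusted p = 0.0163) and -2.01 for KI (SE 0.48, adjusted p = 0.0476). Genes of the receptor's own loop, Ahr, Arnt, Ahrr and Tiparp, did not pass the threshold in either comparison.

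Fmo4, a member of the flavin monooxygenase cluster on chromosome 1, was at 5.73 and 11.3 CPM in WT vehicle and 5.96, 6.43 and 2.96 in WT PFOA. The KO values were 3.46, 2.25 and 2.01 CPM on vehicle and 1.33, 2.45 and 0.897 on PFOA, and the KI values 2.86, 4.33 and 1.97 on vehicle and 2.74, 3.6 and 1.26 on PFOA. WT PFOA 65 lay among the engineered libraries, while the other WT libraries lay above all of them. The log2 fold change was -1.69 for KO (SE 0.33, adjusted p = 0.00661) and -1.21 for KI (SE 0.32, adjusted p = 0.0727). Without WT vehicle 122, which held the highest value, KI was no longer called (adjusted p = 0.249), and the KO change was -1.47 (adjusted p = 0.0376).

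Below the fold limit, abundant lung enzymes were lower in KO with small adjusted p-values. Fmo2 ranged from 1099 to 1568 CPM in WT (median 1303, n = 5) and from 407 to 806 CPM in KO (median 737, n = 6), with no overlap and a log2 fold change of -0.91 (SE 0.16, adjusted p = 0.00365). Cyp4b1 ranged from 364 to 434 CPM in WT (median 406) and from 124 to 261 CPM in KO (median 235), a change of -0.85 on the log2 scale (SE 0.15, adjusted p = 0.00442). Gsta3, an alpha transferase that also acts on aflatoxin epoxide, ranged from 96.3 to 189 CPM in WT (median 108) and from 52.1 to 72.3 CPM in KO (median 60.8), a change of -0.98 (SE 0.16, adjusted p = 0.00185). KO and WT libraries were fully apart for each of the 3. For KI, which lay between the other genotypes in the median of all 3 genes, the changes were -0.64 for Fmo2, -0.47 for Cyp4b1 and -0.62 for Gsta3. Aox3, Gstk1 and Fmo1 were also below an adjusted p of 0.05 in KO, with log2 fold changes of -0.75, -0.65 and -0.61.

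**Figure D2:**
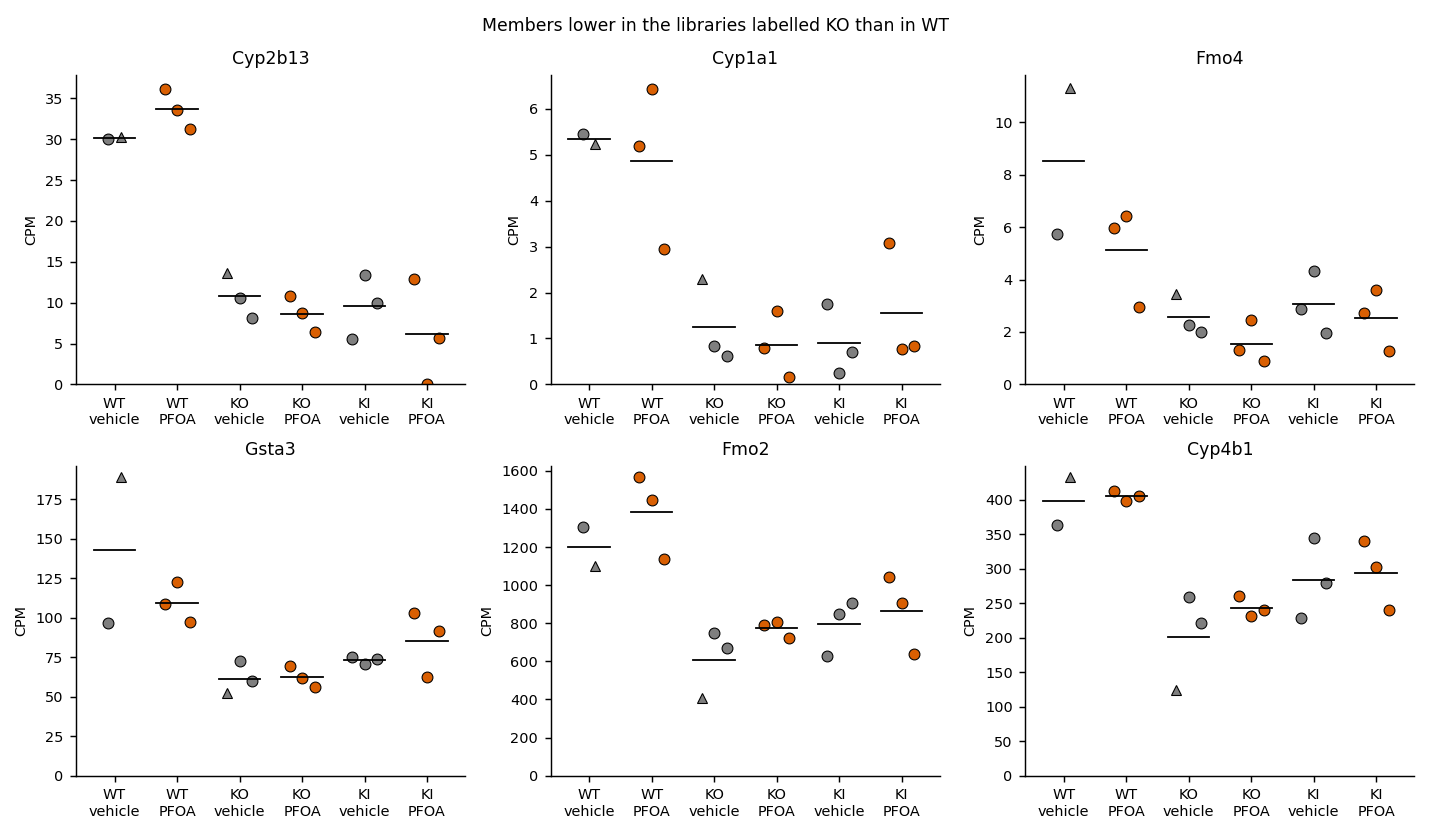
CPM of 6 members in each of the 17 libraries, by genotype label and exposure. Grey marks vehicle and orange PFOA, triangles mark WT vehicle 122 and KO vehicle 137, and horizontal lines are group means. Cyp2b13 lies between 29.97 and 36.1 CPM in WT and at or below 13.6 CPM in all engineered libraries.

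KO vehicle 137 had the lowest value of all libraries for Fmo2 and Cyp4b1, at 407 and 124 CPM, and the lowest share of protein-coding counts. With it and WT vehicle 122 left out, 4 members and 625 of all genes were called for KO, Cyp2a5 (-1.18) being the added member, and Fmo2 was at -0.84, Cyp4b1 at -0.69 and Gsta3 at -0.70 on the log2 scale, each with an adjusted p of at most 0.00313. The changes of Cyp1a1 and Cyp2b13 were then -2.53 and -1.91. Sex was a further difference between the labels, and with sex as a covariate 3 members and 429 of all genes were called for KO, 3 members were below an adjusted p of 0.05, and the changes were -1.89 for Cyp1a1, -1.67 for Cyp2b13 and -1.61 for Fmo4. With the second index number of the library as a covariate 2 members, Cyp1a1 and Fmo4, and 469 of all genes were called, and 0 members were below 0.05 in edgeR, where 11 members had an unadjusted p under 0.05.

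Marker lists of cell types moved with genotype in part, and their share in the member changes was not tested beyond the covariate below. The club cell sum was 6135 to 22879 CPM in WT, 4425 to 8133 in KO and 5865 to 10307 in KI libraries, and for KO 6 of 10 club cell markers had a value below 0, 4 of them at an unadjusted p under 0.05. The alveolar type 2 sum was 4687 to 10082, 3214 to 9466 and 6626 to 9873 CPM. All 6 alveolar type 1 markers had values below 0 for KO and for KI, with medians of -0.25 and -0.20. Of 6 B and T cell markers, 2 were called higher in KO and 2 in KI, with medians of 1.06 and 1.15 and sums of 8.35 to 31.7 CPM in WT, 22.6 to 91.8 in KO and 20.9 to 93.3 in KI. Cardiac muscle markers had a median of 0.11 for KO and 1.66 for KI. With the club cell score as a covariate 4 members were called for KO, against 667 of all genes, and 4 for KI, against 338, again with Cyp2a5 added (-1.32 and -1.03). This score weights the markers equally and does not follow their sum, since WT vehicle 122, with the highest sum, had a score of 5.67 and KO vehicle 137 one of 6.28. The KO changes were then -2.29 for Cyp1a1, -1.81 for Cyp2b13 and -1.70 for Fmo4.

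KO and KI, which came from the same kind of breeding, differed in no member at the threshold in edgeR or DESeq2, where 0.00742% of all genes were called in edgeR. Unadjusted p-values under 0.05 were found for 4 members lower in KO (background 2.25%) and 0 higher (background 2.52%). The count lower was 8 in a fit of KO and KI alone, 6 without KO vehicle 137 and 2 with sex as a covariate. In each of these fits 0 members and 2 of all genes were called, and their background at that p is not given. Without WT vehicle 122 the member median was -0.14, and without it and KO vehicle 137 -0.15. Gsta4, the transferase that conjugates 4-hydroxynonenal, was at 22.5 to 26.6 CPM in KO vehicle, 21.5 to 28.7 in KO PFOA, 35.0 to 41.4 in KI vehicle and 26.1 to 40.4 in KI PFOA. The vehicle groups did not overlap, and the exposed groups did. The log2 fold change over both exposures was -0.58 (SE 0.19, adjusted p = 0.9997, edgeR). Cyp4b1, Gsta3 and Cyp1b1 followed with -0.38, -0.36 and -0.54, and 44 of 56 members had a value below 0, with a median of -0.15 against 0.01 over all genes. All KO libraries came from females, whereas KI included males. With sex as a covariate the member median was -0.08, against 0.02 over all genes.

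PFOA against vehicle was compared within each genotype and over all 3. In edgeR no member and none of the 26946 genes (0%) was called in WT, KO or KI or over the 3 genotypes, and DESeq2 on the same genes called 0 members and 24, 68, 1 and 26 genes in these comparisons. In WT, 9 members had an unadjusted p under 0.05 and a lower value on PFOA (background 4.23%) and 1 a higher one (background 3.12%). In KO these were 3 lower (6.06%) and 1 higher (3.74%), in KI 1 lower (1.12%) and 0 higher (1.47%), and over the 3 genotypes 7 lower (4.47%) and 2 higher (3.8%). Exposed and vehicle WT libraries did not overlap for 7 members lower and 7 higher on PFOA, against 10.9% and 11.6% of all genes, so both counts were near the background. Member medians were -0.10, -0.10, 0.04 and -0.12 on the log2 scale in WT, KO, KI and the 3 together. Without WT vehicle 122 the WT median was 0.13, and without KO vehicle 137 the KO median was 0.01. The 7 lower members over the 3 genotypes became 1 without WT vehicle 122, 4 without KO vehicle 137, 2 without WT PFOA 50 or WT PFOA 56, 3 without KO PFOA 154 and 4 without KI vehicle 102, and the 3 lower ones in KO became 1 without KO vehicle 137.

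Cyp2f2 was at 1306 and 3151 CPM in WT vehicle and at 959.8, 1012 and 1267 in WT PFOA. In KO it was at 1002, 825 and 951 CPM on vehicle and 969, 549 and 949 on PFOA, and in KI at 1262, 1282 and 1139 on vehicle and 1098, 863 and 1371 on PFOA. WT vehicle 122 stood far above every other library. Vehicle and exposed libraries were apart in WT and overlapped in KO and KI, and the difference between genotypes is tested further on. The change in WT was -1.05 (SE 0.30, adjusted p = 0.479, edgeR). Markers of several cell types moved with it. The 10 club cell markers summed to 10681 CPM in WT vehicle 107 and 22879 in WT vehicle 122, against 6135 to 8047 CPM in WT PFOA and 4425 to 10307 in all engineered libraries. Of the lists compared in WT, 5 of 10 club cell, 7 of 8 ciliated cell and 4 of 5 smooth muscle markers were lower at an unadjusted p under 0.05, with medians of -0.90, -1.03 and -0.75. The 6 B and T cell markers all had values above 0 (median 1.17), 2 of them at that p. The part of these cells in the change of Cyp2f2 was not tested. No fit without WT vehicle 122 is given for the marker lists. An antisense transcript, Gm15883, overlaps Cyp2f2, and whether the counting used the strand is not given in the sources used here.

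Cyp2s1, an epithelial P450, was the member with the smallest p-value both in WT and over the 3 genotypes. It was at 112 and 201 CPM in WT vehicle and 81.9, 87.4 and 86.1 in WT PFOA. KO libraries had 129, 86.5 and 108 CPM on vehicle and 89.8, 78.1 and 86.4 on PFOA, and KI libraries 115, 114 and 138 on vehicle and 87.6, 76.4 and 115 on PFOA. Exposed libraries lay mostly at the lower end in each genotype, with overlap in KO and KI. The log2 fold change was -0.88 in WT (SE 0.22, adjusted p = 0.456) and -0.52 over the 3 genotypes (SE 0.12, adjusted p = 0.385, edgeR). DESeq2 gave -0.54 over the 3 genotypes with an adjusted p of 0.0514, or 0.031 with its default filters, under the fold limit in both.

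Gsta4 was at 31.6 and 72.6 CPM in WT vehicle and 24.6, 24.3 and 32.1 in WT PFOA, so that WT PFOA 65 exceeded WT vehicle 107. Aox3, the aldehyde oxidase with the highest level in these lungs, was at 146 and 295 CPM in WT vehicle and 143, 139 and 136 in WT PFOA. For both the size of the change came mainly from WT vehicle 122. The changes were -0.94 for Gsta4 (SE 0.26) and -0.67 for Aox3 (SE 0.20), with adjusted p-values of 0.462 and 0.482. Cyp4f15, which acts on leukotriene B4, followed with -1.20 (SE 0.42, adjusted p = 0.544).

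These WT values rested on which vehicle library was kept. Without WT vehicle 122 no member had a lower value at an unadjusted p under 0.05 in WT, and the changes were -0.27 for Cyp2f2, -0.40 for Cyp2s1, -0.22 for Gsta4 and -0.07 for Aox3. Without WT vehicle 107, which leaves 122 as the single vehicle library and takes its spread from the other groups, 11 members and 1672 of all genes were called, and the same 4 changes were -1.54, -1.24, -1.42 and -1.09. WT vehicle 122 was the male vehicle library and 107 the female one.

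**Figure D3:**
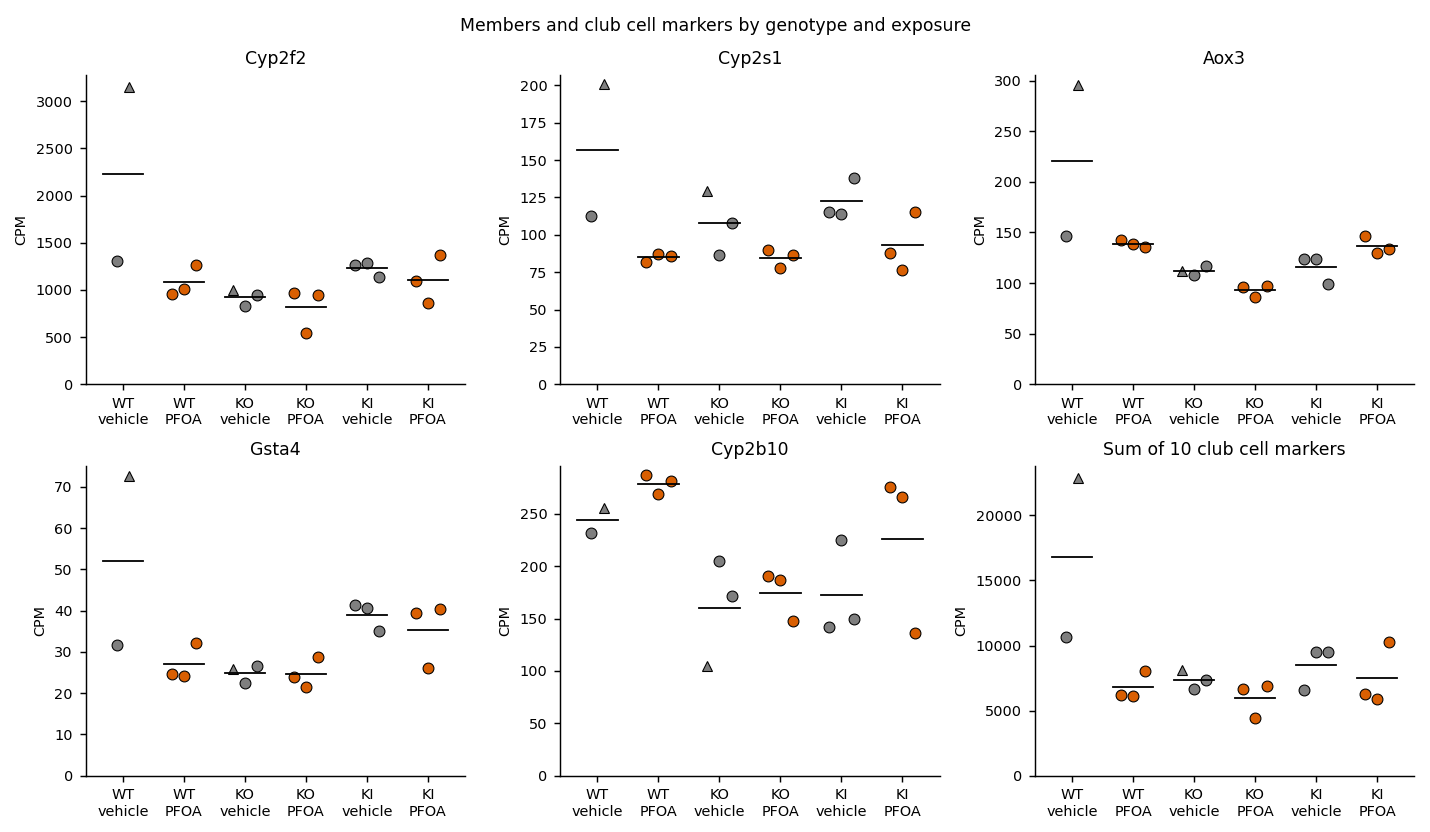
CPM of 5 members and the summed CPM of 10 club cell markers in each library, by genotype label and exposure. Grey marks vehicle and orange PFOA, triangles mark WT vehicle 122 and KO vehicle 137, and lines are group means. WT vehicle 122 is highest for Cyp2f2 at 3151 CPM and for the club cell markers at 22879 CPM.

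In KO the 5 smallest p-values for PFOA belonged to Cyp4f17 (-0.81), Cyp2b19 (-1.61), Cyp4f18 (1.69), Aox1 (-0.47) and Gsta2 (-1.29 on the log2 scale), with adjusted p-values of 0.469 to 0.548. Cyp4f17 was at 12.9, 7.04 and 8.66 CPM on vehicle and 5.45, 5.11 and 5.53 on PFOA. Cyp4f18, the CYP4F enzyme of myeloid cells that inactivates leukotriene B4, was at 1.84, 1.13 and 1.51 CPM on vehicle and 4.65, 3.3 and 6.43 on PFOA. Neither gene overlapped between the groups, and Zfp961 lies over Cyp4f18 on the opposite strand. All KO PFOA libraries carried a second index that no KO vehicle library did, so index and exposure cannot be told apart in KO. Without KO vehicle 137, which held the highest values of Cyp4f17 and Cyp2b19 in KO, the changes were -0.55 for Cyp4f17, -0.73 for Cyp2b19, 1.84 for Cyp4f18, -0.35 for Aox1 and -1.43 for Gsta2, each with an adjusted p of 1.0.

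In KI the smallest p-value for PFOA belonged to Gstp2 with -1.03 (SE 0.35, adjusted p = 1.0), at 15.6, 14.9 and 7.17 CPM on vehicle and 6.96, 6.94 and 4.47 on PFOA, without overlap. Cyp2s1, Gstt2, Cyp4v3 and Cyp2b10 followed with -0.40, 0.42, 0.29 and 0.39. Gstp1 and Gstp2 are near-identical, so counts can be split between them.

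Cyp2e1, the ethanol-inducible P450, was the member with the smallest p-value among those higher on PFOA over the 3 genotypes, with a log2 fold change of 0.86 (SE 0.36, adjusted p = 0.539). It was at 2.66 and 1.96 CPM in WT vehicle and 4.69, 6.14 and 5.91 in WT PFOA. The highest values were 14.9 CPM in KO PFOA 52 and 18.4 CPM in KI PFOA 57, against 2.34 to 6.21 CPM in the other KO and KI libraries. Fat cells also express this gene, and 6 adipocyte markers summed to 76.9 and 52.1 CPM in those libraries and to 3.21 to 105.5 CPM over all 17. KI vehicle 102, with the highest sum, had 6.21 CPM of Cyp2e1. The part of adjacent fat in the Cyp2e1 values was not tested.

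Differences of the PFOA effect between genotypes were tested as interactions, and 0 members and 0% of genes were called in edgeR for KO minus WT or KI minus WT, with 0 members in DESeq2 on the same genes. At an unadjusted p under 0.05 there were 4 members for KO minus WT (background 7.46%) and 6 for KI minus WT (background 4.58%). Cyp2f2 had differences of 0.87 for KO and 0.90 for KI, and Gsta4 of 0.92 and 0.80. Cyp4f17 (-0.93), Cyp2j6 (0.85) and Gstt3 (0.61) completed the 5 smallest p-values for KO minus WT, with adjusted p-values of 0.669 to 0.676. Among the smallest p-values for KI minus WT, with Aox3 and Gsta4, were Gstp2 (-1.33) and Cyp4f18 (-2.79 on the log2 scale). Cyp4f18 had 6 and 0 counts in WT vehicle 107 and 122 and 4 in KI PFOA 57. Its difference ran from -7.48 to -1.84 over the alternative fits listed below. The largest by p-value was Aox3 for KI minus WT, at 0.91 (SE 0.27, adjusted p = 0.999). All of these use the WT vehicle libraries, and a fit without either one has a single WT vehicle library, so effect sizes alone follow. With all libraries the member medians were 0.12 for KO minus WT and 0.12 for KI minus WT, against -0.04 and -0.01 over all genes. Without WT vehicle 122 they were -0.12 and 0.03, against -0.07 and -0.04 over all genes. The Aox3 difference was then 0.31, those of Cyp2f2 0.10 and 0.12, and those of Gsta4 0.21 and 0.07. Without WT vehicle 107 the member medians were 0.17 and 0.25, against -0.13 and -0.10 over all genes.

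Females were compared with males in a model with genotype and exposure, which rests on WT and KI because no KO library was male. No member was called in edgeR or in DESeq2 on the same genes, where 0.0408% of all genes were called in edgeR, and 8 members had lower values in females at an unadjusted p under 0.05 (background 3.22%) and 0 higher ones (background 1.87%). Cyp2a5, the coumarin hydroxylase, ranged from 72.1 to 211 CPM in males (median 133), from 42.9 to 77.6 CPM in WT and KI females and from 14.2 to 132 CPM in KO females. The sexes overlapped, with a log2 difference of -1.12 (SE 0.42, adjusted p = 0.830). Gstm5, Cyp2e1, Cyp2u1 and Gsto1 followed with -0.79, -1.03, -0.62 and -0.36. Of 6 adipocyte markers, 5 were lower in females at an unadjusted p under 0.05 (median -2.64), and so were 5 of 5 cardiac muscle markers (median -1.76), 1 of which was called. Their part in the Cyp2e1 difference was not tested. The median over members was -0.26 and over all genes near 0. Without the male library WT vehicle 122 the member median was -0.13. With the club cell score described next as a covariate, 3 members had lower values in females at an unadjusted p under 0.05.

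**Figure D4:**
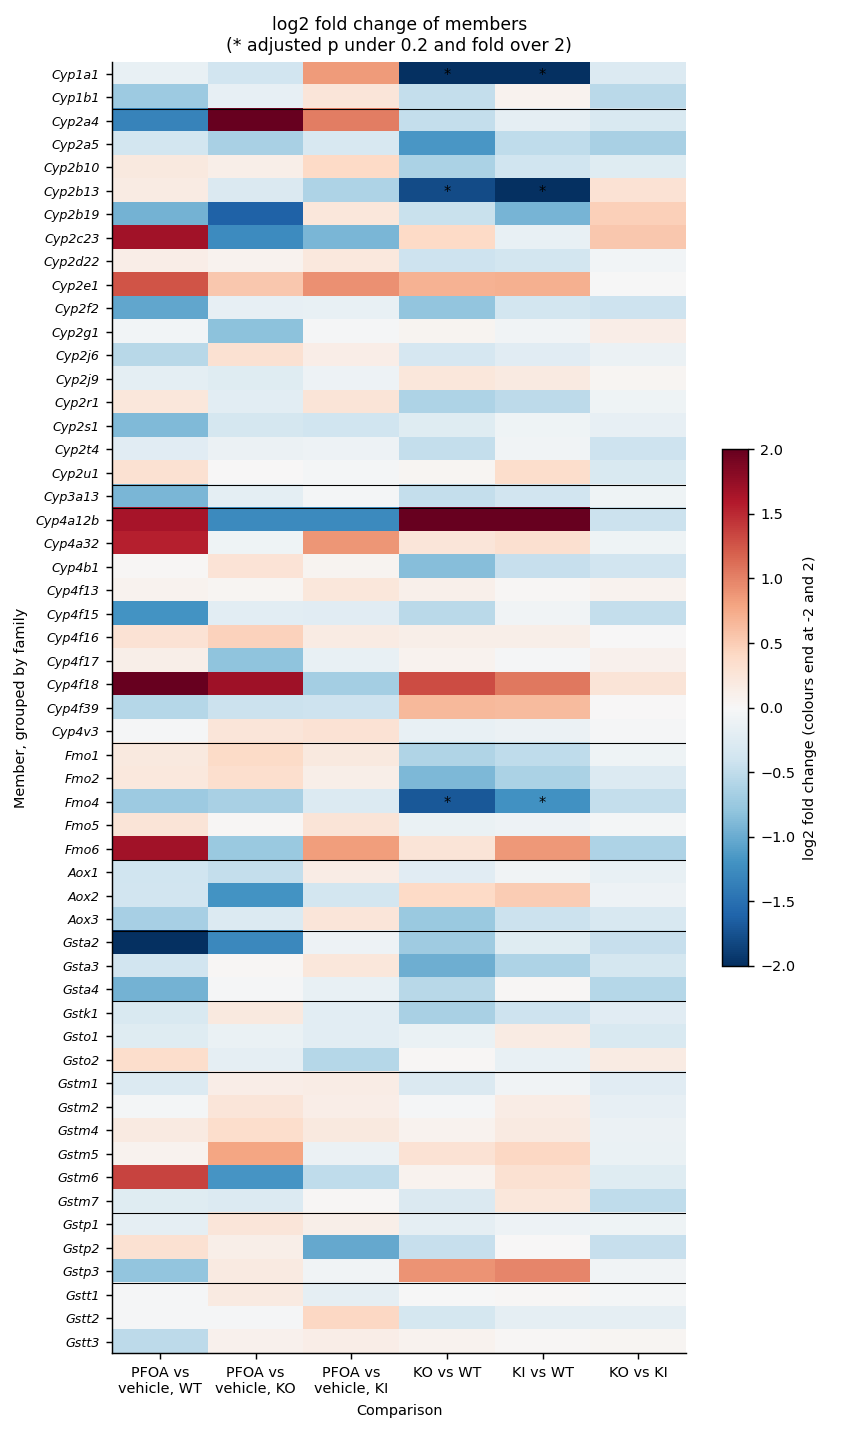
Log2 fold change of the members reported here in 6 comparisons, grouped by family from CYP1 at the top to theta transferases at the bottom. Blue is lower and red higher, colors end at -2 and 2, and asterisks mark calls. Asterisks stand only on Cyp1a1, Cyp2b13 and Fmo4, in the KO and KI comparisons with WT.

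Airway content varied between libraries of the same group, so each member was set against a club cell score, the mean log2(CPM + 1) of 10 club cell markers, none of them a member, across the 17 libraries. The score weights low and abundant markers equally and, as said above, does not follow their sum. Of 56 relations computed, 3 had a Pearson r above 0.7, against 1.12% of all genes. They were Gsto1 (r = 0.894, rho = 0.848, permutation p = 1e-05, the smallest that 100000 resamples can give), Cyp4a12b (r = 0.779, rho = 0.854, permutation p = 0.0003) and Cyp2a5 (r = 0.729, rho = 0.743, permutation p = 0.00058). Without KO PFOA 154 and WT PFOA 50, farthest from the median score, r was 0.841, 0.764 and 0.691. Their permutation p-values, adjusted over members, were then 0.00392, 0.0445 and 0.0819. On deviations from group means it was 0.909, 0.800 and 0.900. Cfap43, a gene of motile cilia, overlaps Gsto1 on the opposite strand, and Cyp4a12b was at 0 in 6 libraries. Cyp2f2 had r = 0.512 and rho = 0.596 (permutation p = 0.0216), and r = 0.722 on deviations from group means. On these deviations 5 members were above 0.7, with Cyp1b1 (0.727) and Cyp2f2 added. Some abundant members had values below 0. For Fmo2, Fmo1, Cyp2b10 and Cyp4b1, r was -0.428, -0.497, -0.432 and -0.236. Taken as deviations from group means, these were -0.696, -0.674, -0.486 and -0.419. Gsta4 and Cyp2s1, also abundant, had r of 0.570 and 0.492. The lowest r was -0.527, for Cyp4v3. With r below 0, 0 members had a permutation p, adjusted over members, under 0.05.

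**Figure D5:**
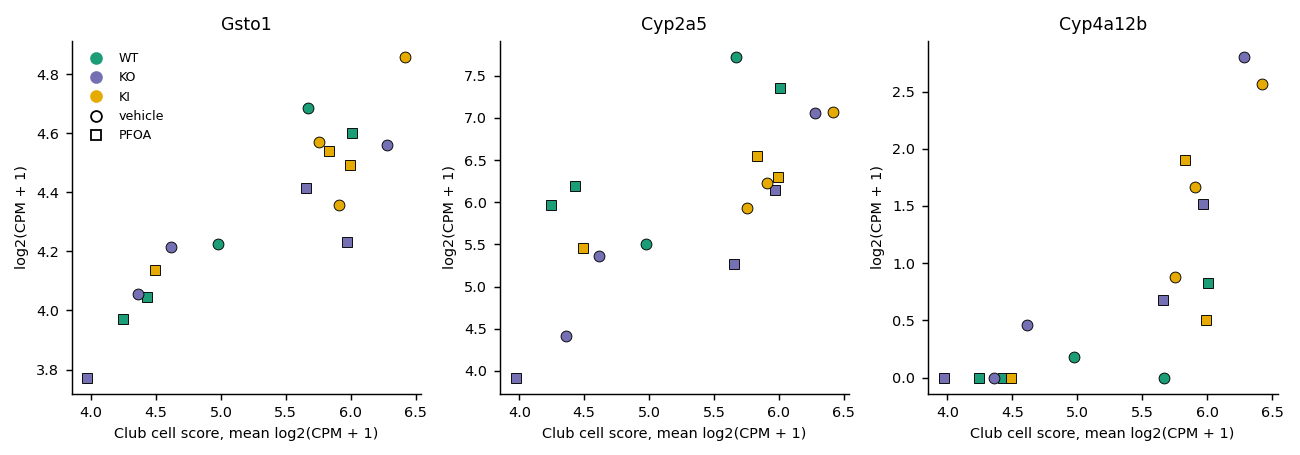
log2(CPM + 1) of Gsto1, Cyp2a5 and Cyp4a12b against the club cell score in 17 libraries. Colors give the genotype label, circles vehicle and squares PFOA. Each gene tends to be higher where the score is higher, with r of 0.894, 0.729 and 0.779.

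Of 77 partner and pathway genes listed for this work, 74 could be tested. None was called for PFOA in any genotype or over the 3 in edgeR. In WT 10 had an unadjusted p under 0.05, all lower (background 4.23% lower and 3.12% higher). KO against WT had 2 called, both lower: Ces1g, a carboxylesterase, at 14.1 ± 12.8 CPM in WT (SD, n = 5) and 2.21 ± 0.613 in KO (SD, n = 6), with -2.59 (SE 0.42, adjusted p = 0.00131) and Ugt1a6b, a glucuronosyltransferase of phenols, with -1.27 (SE 0.43, adjusted p = 0.159). KI against WT had the same 2 lower, with -1.82 and -1.35, together with Nr1i3, the receptor CAR that drives CYP2B genes in liver, at -1.34 (SE 0.39, adjusted p = 0.134), and Ppara higher at 1.29 (SE 0.19, adjusted p = 0.000577). For KO the Ppara change was 0.78 (SE 0.19, adjusted p = 0.0362), under the fold limit. Among 25 other oxidizing, reducing and hydrolyzing enzymes, 22 had a value below 0 in KO against WT, with a median of -0.42 against 0.02 over all genes. Among 9 genes of P450 partners and heme supply the count was 6, with a median of -0.26, and among 9 genes of glutathione supply 8, with a median of -0.14. Among 11 receptors and regulators it was 7 (median -0.16), among 10 conjugation enzymes 5 (median -0.13), and among 10 P450 genes of endogenous substrates 5 (median 0.05).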

How the data were processed

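Lung RNA of 17 mice in 6 groups was measured from stranded total RNA libraries. The authors trimmed 3′ ends, used STAR 2.6 within Partek Flow for alignment against mm10, estimated reads per gene by expectation maximization, and deposited these estimated counts without normalization. Of the table's cells 31.3% were not whole numbers. The strand setting and annotation release are not given in the sources used here.

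Counts were rounded, genes with a total of at least 20 were kept (26946), and edgeR 4.0.16 in R 4.3.3 fitted all libraries together after TMM scaling. The quasi-likelihood test gave p-values, with the Benjamini-Hochberg adjustment made across the whole set of tested genes. A call needed an adjusted p under 0.2 and a fold over 2. Exposure effects within genotypes and interactions came from 6 group means, and the other comparisons from additive models. SE is the log2 fold change divided by the root of the F statistic. CPM are TMM-normalized, and exon lengths came from GENCODE M21. Library depth was 4116118 to 9237356, so that a floor of 3 counts equals 0.325 to 0.729 CPM. Such a floor covers counting error only. Members, gene lists and tests were chosen with earlier results of these data known. Members were named if they were among 18 set by hand, among the 10 highest per kilobase, called, or, where none was called, among the 5 smallest p-values of a comparison, and pathway genes if called. Values of 1 member are not reported here. Other genes given beside a result (Cyp2c23, Aox2, Cyp2a4, Cyp2d9, Cyp3a11, Cyp4x1, Gstk1, Cyp4f13, Fmo5, Cyp4a12b, Cyp4a32 and Cyp2b9) were chosen after their values were seen.

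Alternatives were DESeq2 1.42.0 without and with default filters, RLE and upper-quartile scaling, no filter, filterByExpr, protein-coding genes only, robust estimation, sex, index number or club cell score as a covariate, fits of the compared groups alone, a stricter threshold, and libraries left out. Tested on simulated counts for 26946 genes with 200 changed 4-fold, edgeR recovered 174 for PFOA in WT, with 25 other calls, and 193 for KO against WT, with 21. No replicate pair agreed within sampling noise (smallest chi-square over its degrees of freedom 6.28). Each library is 1 mouse, so p-values measure the spread between mice. Figures were drawn with matplotlib 3.10.9 in Python 3.11.15.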

Additional observations from a re-analysis of the deposited data

Results flagged for a closer look

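Aox3, an aldehyde oxidase, was singled out because all exposed libraries moved one way against vehicle in some genotypes and the other way in another. On the log2 scale its PFOA effect was -0.67 in WT and -0.27 in KO, where every exposed library lay below every vehicle library, and 0.24 in KI, where every exposed library lay above. The values were 146 and 295 CPM on vehicle and 143, 139 and 136 on PFOA in WT, 111, 108 and 117 against 96.2, 86.5 and 97 in KO, and 124, 124 and 99.1 against 146, 130 and 133 in KI. In WT the lower vehicle library and the highest exposed one were close, at 146 and 143 CPM. Without the WT vehicle library at 295 CPM, the WT effect was -0.07. Such separation was not rare in groups this small. In WT, 10.9% of all genes had exposed libraries wholly below vehicle and 11.6% wholly above. No such share is given for KO, for KI or for the pattern over genotypes. The difference between KI and WT was 0.91 (adjusted p = 0.999, edgeR), and the difference between KI and KO was not tested. Over the alternatives the KI minus WT difference ran from 0.31 to 1.33 with adjusted p-values from 0.0583 to 1.0, the smallest without WT vehicle 107.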

How the results depend on the processing

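No paired analysis was possible because replicate numbers are mouse numbers and no number occurs in more than 1 group. Over 30 alternatives, Cyp1a1 was called in all for KO and KI against WT, with adjusted p of 0.0024 to 0.199 and 0.00776 to 0.197. Cyp2b13 was called in 30 for KI and in 29 for KO, lost with the index number as a covariate (adjusted p = 0.212). Fmo4 was called in 30 for KO and 28 for KI, lost without WT vehicle 122, alone or with KO vehicle 137. No value reversed. For PFOA in WT, DESeq2 with default filters called 1 member (Cyp2f2, adjusted p = 0.147), and leaving out 1 library each gave 0 to 11 members, 11 without WT vehicle 107, where 1672 of all genes were called. The same ranges were 0 to 1 over the 3 genotypes (1 without KI PFOA 139), 3 to 5 for KO against WT (5 without WT vehicle 107 or WT PFOA 65), 0 to 1 for KO minus WT and 0 to 4 for KI minus WT, the highest without WT vehicle 107 in both, where 178 and 350 of all genes were called. Of all genes, DESeq2 with default filters called 74 for PFOA in WT, and edgeR called 35 over the 3 genotypes without KI PFOA 139. For KO against WT, 519 of all genes were called without WT vehicle 107 and 597 without WT PFOA 65. An adjusted p under 0.05 with any fold gave 9 members for KO against WT (background 1.92%). Fitting only the groups compared gave 1 member for female against male (Cyp2a5, adjusted p = 0.19), where 46 of all genes were called. PFOA over the 3 genotypes already used all groups, so that no fit to the groups compared alone was run. Each group held 2 or 3 mice, and members under about 10 counts per library, such as Cyp1a1 in KO, carry large counting error.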
